A study of Bos taurus with 6 samples.

Results

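The aminoacyl tRNA synthetases and the genes of the amino acid and endoplasmic reticulum (ER) stress responses were compared in the cow endometrium between cells of the side population (SP) and of the main population (MP). Members were found by gene symbol, a rule that uses no measured value. The gene set and the lists used below were chosen with earlier results of these data known. Of 34733 named genes in the deposited tables, 50 are members. They are 20 cytosolic synthetase genes, 16 mitochondrial synthetase genes and 14 stress and amino acid synthesis genes. The symbol rule does not match the synthetase genes PARS2 and TARSL2, which are not members. Each member has 1 row and a value above 0 in every library.

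Synthetases join each amino acid to its tRNA, and separate nuclear genes mostly serve the cytosol and the mitochondrion. When uncharged tRNA builds up, the kinase GCN2 phosphorylates translation factor eIF2, and ER stress does the same through the kinase PERK. Bulk translation then slows while the transcription factor ATF4 is made, which switches on amino acid synthesis genes, transporters, several synthetases and DDIT3, CHAC1 and TRIB3. In the ER, IRE1 (gene ERN1) splices XBP1 messenger RNA as a parallel arm. WARS, the tryptophan enzyme, is in addition a classic interferon-induced gene.

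SP cells of Bos taurus endometrium in the luteal phase were compared with MP cells of the same tissue and phase, 3 libraries each. Per the labels' protocols, both came from collagenase-digested stromal preparations of slaughterhouse uteri whose luminal epithelium had been removed, and propidium iodide served to leave out dead cells. SP cells pump out the Hoechst dye, which ABC transporters export, whereas MP cells keep it. Whether the replicates are separate animals is not stated in the labels; the p-values therefore reflect only the spread among these libraries, which may be technical. The column names carry stroma numbers 1, 2 and 4, each once in SP and once in MP, for replicates 1, 2 and 3 of both. Same-numbered libraries may thus share a preparation, which is not stated, and calls that differ with the replicate number as a block are given beside the genes. The sources used here do not give the age or breed of the cows. Only the MP columns are marked micro in the files, and any difference in handling it may mark cannot be told apart from the population.

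The unit is FPKM, in which fragments are divided by the length of the transcript and the size of the library, so levels can be compared between genes. The sums of FPKM ran from 647501 to 870311 in SP and from 805915 to 963629 in MP. Low values put the depth of SP replicates 2 and 3 at 1.61 and 1.83 times and that of MP replicates 1 to 3 at 2.34, 3.22 and 2.01 times the depth of SP replicate 1. Markers of other cell types parted the populations. Of the endothelial markers 18 of 20 tested were higher in SP, against 20.5% of all tested genes. Their summed levels were 2353 to 3673 FPKM in SP and 277 to 1400 FPKM in MP. Stromal fibroblast markers summed to 311 to 523 FPKM in SP and 3248 to 11778 FPKM in MP. Of them 13 of 16 were lower, against 18.7% of all tested genes. Of these 13, DPT, HAND2 and WNT2 were under 1 FPKM in every SP library, so that the filter fixed their direction. Myeloid markers summed to 123 to 146 FPKM in SP and 683 to 1235 FPKM in MP, and T and NK cell markers to 0.611 to 3.94 FPKM in SP and 82.5 to 263 FPKM in MP. In MP most of that T and NK sum was GZMB, at 52.2, 162 and 223 FPKM. CD8B was listed at 0 in all SP libraries and at 2.87 to 4.93 FPKM in MP; GZMA and KLRB1 were at 0 in SP and below 1 FPKM in MP. The part of these cell types in the results was not tested, and in such bulk samples fewer cells of a type and less RNA per cell cannot be told apart.

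Most members did not pass the test. Genes that reached 1 FPKM in 3 or more libraries were fitted with limma on log2(FPKM + 1), and those with a Benjamini-Hochberg adjusted p under 0.05 over all tested genes are said to have risen, fallen or been called. Of 50 members 48 were tested, and none of those tested stayed below 1 FPKM throughout SP or throughout MP, so the filter fixed no direction. Of the 48, 7 rose in SP (WARS, CARS, EPRS, AARS, CHAC1, DDIT3 and ERN1), FARSB fell and 40 were not called. This is 16.7% of the members, where 39.2% of all 12127 tested genes were called, 20.5% higher and 18.7% lower. The median log2 fold change was 0.092 over the members and 0.0075 over all tested genes. SP and MP values did not overlap in 18 members, 12 with SP above and 6 with SP below, against 54.8% of all tested genes (28.3% above and 26.5% below). The number called depended on single libraries: 3, 1 and 6 without SP replicates 1, 2 and 3, and 3, 3 and 9 without MP replicates 1, 2 and 3. Fold changes of a factor of 2 or more were seen in 6 of the 48 tested members, called or not, and in 3905 of the 12127 tested genes.

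Scaling moved these counts as well. When each library was scaled to a sum of 1e+06, the median of all tested genes moved to 0.19, and 68.0% of all calls were higher in SP against 52.3% as deposited. The members then had 13 calls, 12 higher and 1 lower, with ATF4, EIF2AK3, FARSA, SARS and TARS added. Their median log2 fold change was 0.23 on that scale, against 0.19 over all tested genes.

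**Figure D1:**
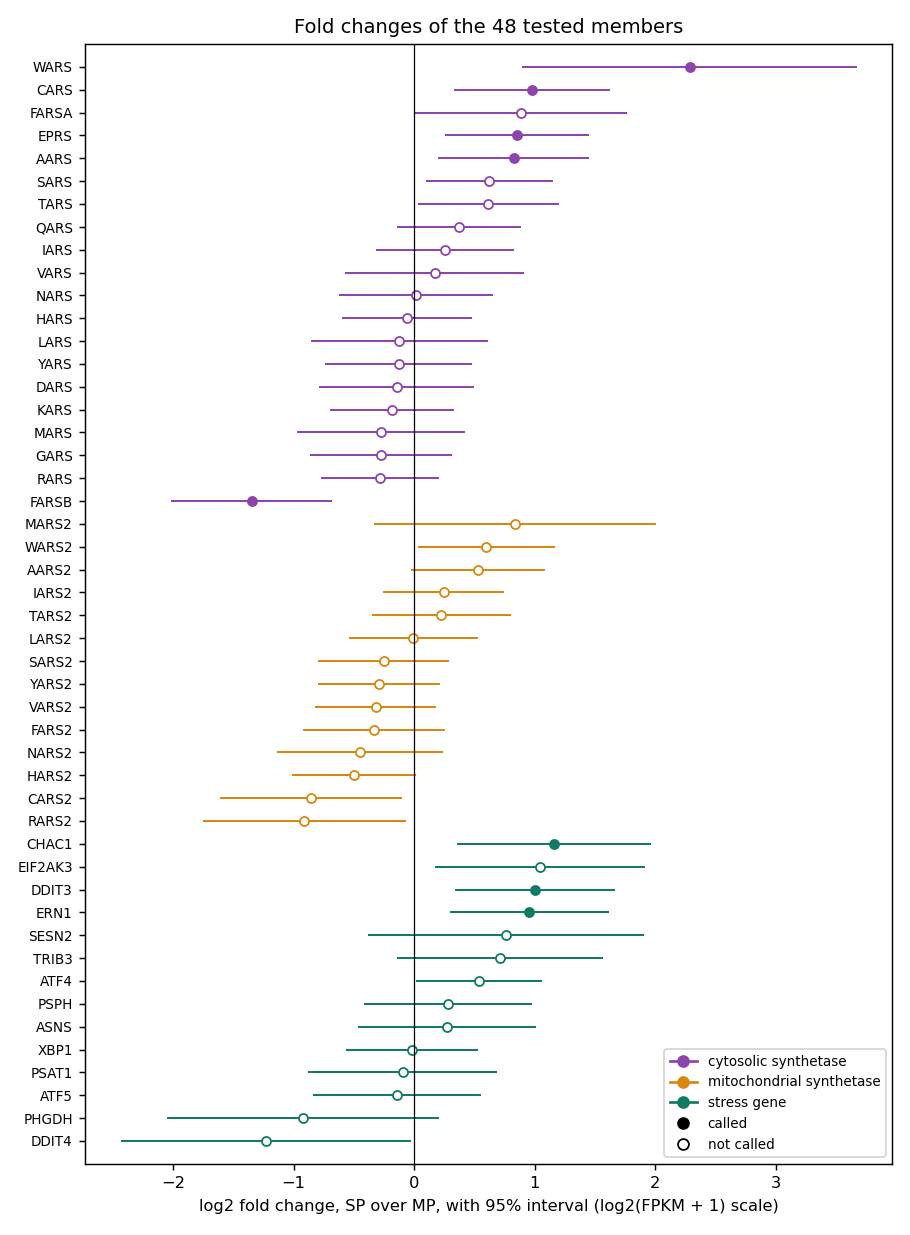
Log2 fold change of each tested member, SP over MP, on the log2(FPKM + 1) scale, with its 95% interval from limma; filled points were called. WARS lies farthest to the right at 2.28 and FARSB farthest to the left at −1.35, while no mitochondrial synthetase is filled.

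WARS, cytosolic tryptophanyl tRNA synthetase (chromosome 21, 65238586 to 65261044, build ARS-UCD1.2), had the largest difference of any member. WARS was at 217, 468 and 118 FPKM in the SP libraries 1 to 3, against 21.4, 67.3 and 67.8 FPKM in MP replicates 1 to 3. All SP values lay above all MP values, SP replicate 2 was highest and MP replicate 1 lowest. The log2 fold change was 2.28 ± 0.60 (SE; limma adjusted p = 0.0211), and the exact two-sided permutation test gave p = 0.1, the smallest that 3 against 3 libraries allow. Of 16 alternatives 12 kept the call, and adjusted p ranged between 0.00833 and 0.0579. The call was lost without SP replicate 1, SP replicate 2 or MP replicate 1 (adjusted p = 0.0567, 0.0568 and 0.0579) and with no filter on low values (0.0561).

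In SP, WARS was the most abundant cytosolic synthetase and made up 30.3%, 46.9% and 19.1% of the summed cytosolic synthetase FPKM in replicates 1 to 3, against 4.36%, 13.1% and 13.5% in MP. Interferon stimulated genes were mostly higher in SP too. Of 24 tested, 17 rose and none fell, 70.8% called against 39.2% of all tested genes (limma, 20 of 24 at an unadjusted p under 0.05). Their median level was 87.1, 68.4 and 41.9 FPKM in SP and 12.8, 21.8 and 30.2 FPKM in MP. Their sum was 4747 to 23276 FPKM in SP and 1817 to 4958 FPKM in MP, overlapping. CXCL10, an interferon-induced chemokine named after its values were seen, was at 282, 542 and 65.5 FPKM in SP and at 12.2, 85.7 and 40.3 FPKM in MP. It was highest in SP replicate 2 and lowest in MP replicate 1, and its SP and MP values overlapped. Within SP the median and sum of the interferon list were highest in replicate 1, whereas WARS was highest in replicate 2. Within MP that median and WARS were both lowest in replicate 1 and highest in replicate 3, while the sum was highest in replicate 2. Endothelial markers, 18 of 20 of them higher in SP against 20.5% of all tested genes, also parted the populations. Their median level was 153, 98.5 and 103 FPKM in SP and 8.08, 18.2 and 63.2 FPKM in MP. The part of interferon or of endothelial cells in the WARS level was not tested. The mitochondrial tryptophan enzyme WARS2 was at 8.74, 5.57 and 7.91 FPKM in SP and at 5.04, 4.17 and 4.27 FPKM in MP, which was not called (log2 fold change 0.60, limma adjusted p = 0.0819).

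**Figure D2:**
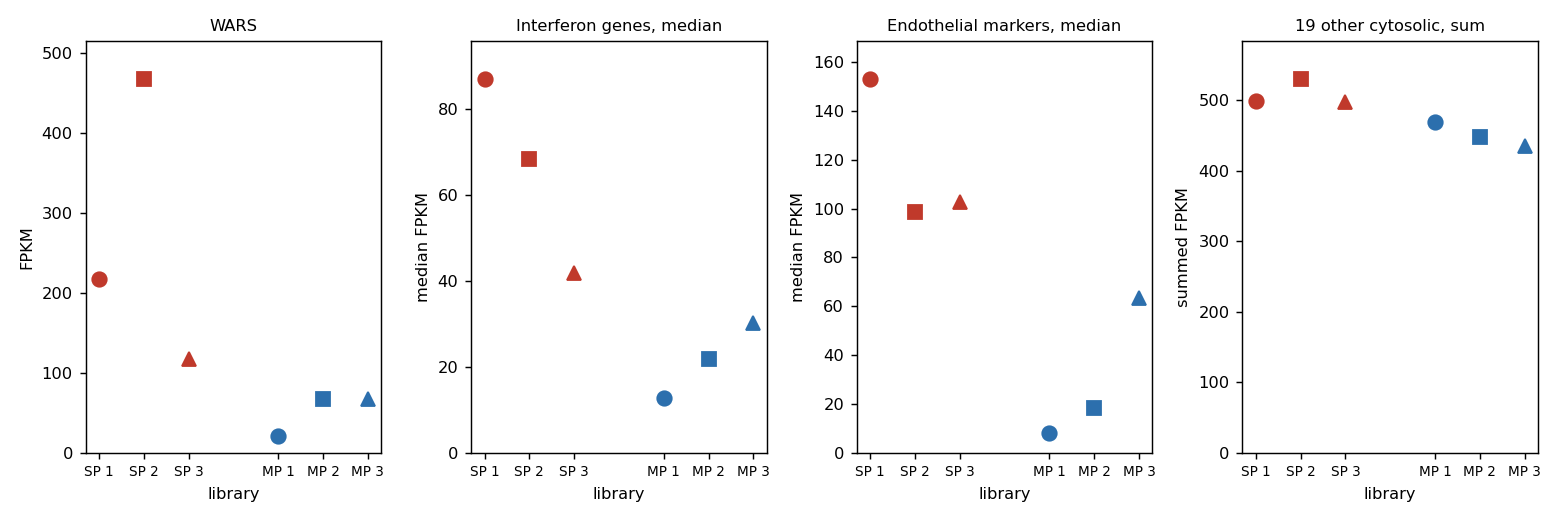
WARS level, median level of the interferon stimulated genes, median level of the endothelial markers and summed level of the 19 other cytosolic synthetases in each library (FPKM, linear axes from 0; SP red, MP blue). WARS is at 118 to 468 FPKM in SP and 21.4 to 67.8 FPKM in MP, while the other 19 together are at 498 to 531 FPKM in SP and 435 to 469 FPKM in MP.

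Leaving WARS out, the cytosolic synthetases were close in level between the populations. Their 19 other genes summed to 499, 531 and 498 FPKM in SP replicates 1 to 3 and to 469, 448 and 435 FPKM in MP replicates 1 to 3. Per 1e+06 of the library sum these were 574, 710 and 770 in SP and 582, 518 and 451 in MP, where SP replicate 1 and MP replicate 1 changed places. The sums are therefore ordered by population on one scale and not on the other.

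CARS, EPRS and AARS also rose. CARS, which charges cysteine tRNA (chromosome 29, 48561974 to 48614662), was at 12.5, 19.2 and 19.3 FPKM in SP and at 6.01, 9.28 and 9.10 FPKM in MP. Every SP value lay above every MP value (log2 fold change 0.98 ± 0.27 SE, limma adjusted p = 0.0270). Of 16 alternatives 12 kept the call (adjusted p between 0.0164 and 0.0883), and it was lost without SP replicates 2 or 3 or MP replicates 1 or 2 (0.0846, 0.0883, 0.0780 and 0.0534). EPRS, a fused enzyme for glutamate and proline that sits in the multisynthetase complex (chromosome 16, 23472910 to 23537555), was at 23.4, 23.4 and 23.8 FPKM in SP and at 17.4, 9.92 and 11.5 FPKM in MP. The SP libraries were nearly equal, and MP replicate 1 was the highest of the lower group. Its log2 fold change was 0.85 with an SE of 0.25 (limma adjusted p = 0.0326), and 9 of 16 alternatives kept the call (0.0177 to 0.105).

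AARS, the alanine enzyme (chromosome 18, 1753604 to 1813087), was at 24.5, 35.6 and 35.5 FPKM in SP and at 13.1, 20.5 and 19.2 FPKM in MP. Replicate 1 was lowest in both populations, and the groups did not overlap. The log2 fold change was 0.82 ± 0.27 (SE; limma adjusted p = 0.0428), close to the threshold, and 6 of 16 alternatives kept the call (adjusted p between 0.0286 and 0.124). It was lost without any 1 of the 6 libraries, with adjusted p of 0.0501, 0.124 and 0.124 without SP replicates 1 to 3 and of 0.119, 0.0679 and 0.0540 without MP replicates 1 to 3. EPRS was lost without SP replicates 1 to 3 (0.0854, 0.0823 and 0.0870) and without MP replicates 2 and 3 (0.105 and 0.0662). With upper quartile scaling and with quantile normalization both were lost, AARS at adjusted p of 0.0679 and 0.0670 and EPRS at 0.0535 and 0.0512. AARS was also lost with the sum rescaled without mitochondrial and ribosomal protein genes (0.0685) and with no filter on low values (0.0646). The listed locus of AARS overlaps that of DDX19B, and reads of the pair may not be told apart.

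Of the subunits of phenylalanyl tRNA synthetase FARSB fell and FARSA was not called. FARSB, the beta subunit (chromosome 2, 110746219 to 110820162), was at 6.87, 7.80 and 8.32 FPKM in SP and at 31.2, 18.0 and 16.4 FPKM in MP. No SP value reached the lowest MP value. Its log2 fold change was −1.35 with an SE of 0.28 (limma adjusted p = 0.0105), and all 16 alternatives kept the call (adjusted p between 0.00725 and 0.0401), the one member for which this held. FARSA, the alpha subunit (chromosome 7, 12627895 to 12637996), was at 29.2, 20.3 and 30.2 FPKM in SP and at 9.21, 11.1 and 24.7 FPKM in MP. MP replicate 3 lay within the SP range, and the log2 fold change of 0.89 ± 0.37 (SE) was not called (limma adjusted p = 0.0939). Without MP replicate 3 FARSA was called at 1.29 (adjusted p = 0.0123), and with the sum rescaled to 1e+06 at 1.11 (0.0383), over a range of 0.0123 to 0.250 in 16 alternatives.

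The ratio of FARSA to FARSB within a library is not changed by a single factor per library, though quantile normalization can change it. It was 4.26, 2.60 and 3.63 in SP and 0.296, 0.616 and 1.51 in MP. FARSA messenger RNA was thus above that of FARSB in every SP library, and below it in MP replicates 1 and 2. The mean log2 ratio was higher by 2.40 in SP (exact two-sided permutation p = 0.1, the smallest possible; a ratio chosen after its values were seen). FARS2, the separate single-chain mitochondrial enzyme for phenylalanine, was at 5.87, 5.07 and 4.16 FPKM in SP and at 6.66, 8.22 and 5.11 FPKM in MP and was not called (limma adjusted p = 0.311).

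**Figure D3:**
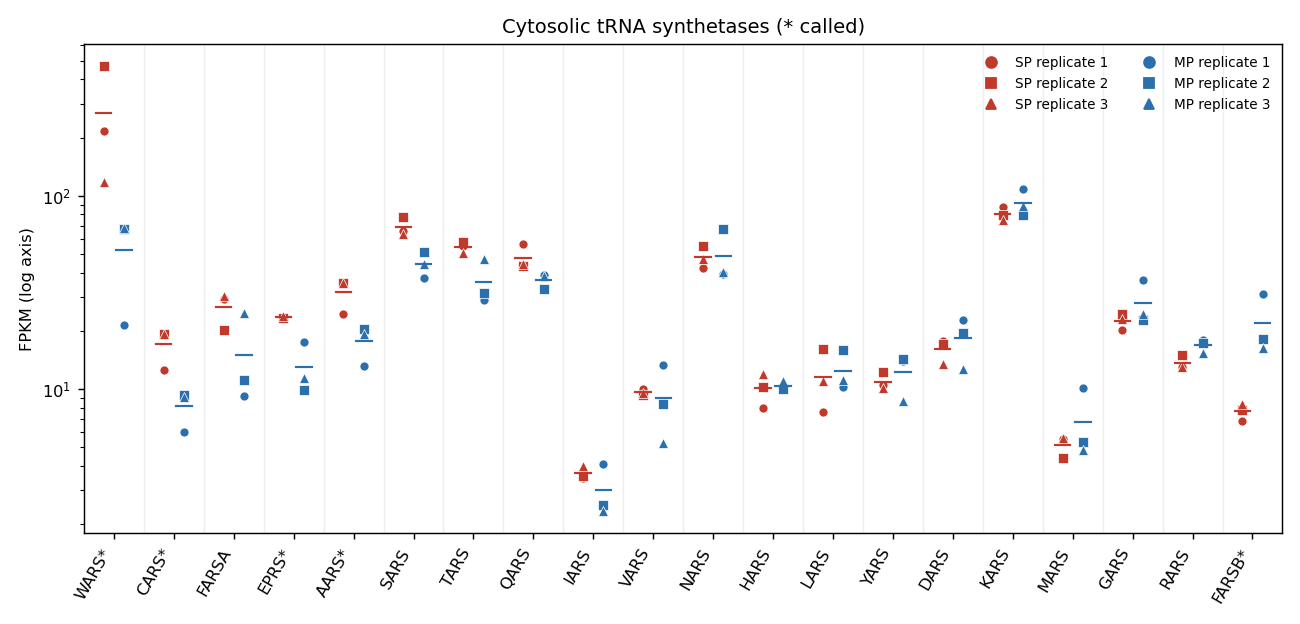
Level of each cytosolic synthetase in every library (FPKM, log axis; SP red at the left of each gene, MP blue at the right, replicate by symbol, short lines for means of 3), ordered by fold change; an asterisk marks a call. WARS, CARS, EPRS and AARS in SP stand above MP, FARSB stands below, and most of the others overlap.

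Called genes were 25% of the 20 cytosolic synthetases, under the 39.2% of all tested genes. SP and MP values did not overlap in 9 of the 20, 7 with SP above and 2 with SP below. Over all tested genes 54.8% did not overlap (28.3% above and 26.5% below). Of the 15 cytosolic synthetases not called, 3 had all SP values above all MP values and 1 had them below. SARS, the serine enzyme, was at 65.5, 77.3 and 63.1 FPKM in SP and at 37.3, 51.4 and 44.5 FPKM in MP (log2 fold change 0.62, limma adjusted p = 0.0579; 0.0249 to 0.167 in the alternatives). TARS, the threonine enzyme, was at 55.0, 57.3 and 50.5 FPKM in SP and at 28.8, 31.5 and 47.3 FPKM in MP (0.61, limma adjusted p = 0.0838; 0.0254 to 0.215). These enzymes passed with FPKM rescaled to a sum of 1e+06 (SARS 0.0249 and TARS 0.0254), and TARS also without MP replicate 3 (0.0279). QARS, the glutamine enzyme, was at 56.4, 43.0 and 44.2 FPKM in SP and at 38.7, 32.8 and 38.3 FPKM in MP (0.37, limma adjusted p = 0.203). RARS, the arginine enzyme, was the gene with SP below, at 12.9, 15.0 and 13.1 FPKM in SP and at 17.9, 17.3 and 15.3 FPKM in MP (−0.28, limma adjusted p = 0.300).

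KARS, which charges lysine tRNA in both compartments, was the most abundant cytosolic synthetase in MP and second to WARS in SP. It was at 87.6, 79.4 and 74.9 FPKM in SP and at 109, 79.7 and 88.0 FPKM in MP, with overlapping groups. Its log2 fold change of −0.18 had a 95% interval of −0.69 to 0.32, and with the sum rescaled to 1e+06 it was 0.039. GARS, the glycine enzyme that likewise serves both compartments, NARS, HARS, LARS, DARS, YARS, VARS, IARS and MARS also overlapped between the populations, with log2 fold changes of −0.28 to 0.25. Of these NARS, HARS, LARS, DARS, YARS, VARS and MARS changed sign in at least 1 alternative. IARS, the isoleucine enzyme, was lowest of the 20, at a mean of 3.33 FPKM over the 6 libraries.

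Of the cytosolic enzymes 8 belong to the multisynthetase complex with the scaffold proteins AIMP1, AIMP2 and EEF1E1. Of these 8, EPRS rose and 7 were not called (median log2 fold change −0.14). Of the 12 enzymes outside the complex, WARS, CARS and AARS rose, FARSB fell and 8 were not called (median 0.39). Called genes were 12.5% inside the complex and 33.3% outside it, both under the 39.2% of all tested genes. The difference between these sets was not tested. None of the 3 scaffold genes was called by limma, and none had an unadjusted p under 0.05. AIMP1 was at 57.2, 65.1 and 51.0 FPKM in SP and at 70.1, 67.1 and 60.9 FPKM in MP. AIMP2 was at 40.6, 27.7 and 27.6 FPKM in SP and at 18.3, 16.9 and 31.2 FPKM in MP. EEF1E1 was at 3.69, 9.97 and 7.48 FPKM in SP and at 11.1, 13.1 and 9.46 FPKM in MP.

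No mitochondrial synthetase was called. Of 16, 14 were tested with limma, 3 had an unadjusted p under 0.05, and the median log2 fold change was −0.27. EARS2, the glutamate enzyme, did not reach 1 FPKM in any library and was not tested. In 5 of the 14 the groups did not overlap, with WARS2 above and CARS2, RARS2, HARS2 and VARS2 below in SP, where 54.8% of all tested genes did not overlap. Levels were low: the median gene averaged 2.42 FPKM in SP and 3.32 FPKM in MP, against 19.7 and 17.2 FPKM for the cytosolic enzymes. The summed mitochondrial enzymes stood at 64.4, 57.0 and 63.7 FPKM in SP and at 75.2, 64.8 and 58.5 FPKM in MP, overlapping.

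CARS2, the mitochondrial cysteine enzyme (chromosome 12, 85239186 to 85258325), was at 4.40, 4.46 and 3.48 FPKM in SP and at 12.5, 8.58 and 5.02 FPKM in MP. Its log2 fold change of −0.86 ± 0.32 (SE) did not pass (limma adjusted p = 0.0674; 0.0160 to 0.175 in 16 alternatives). It passed without MP replicate 3 (−1.16, adjusted p = 0.0160), with library weights (0.0342) and with the replicate number as a block (0.0464). MARS2, the mitochondrial methionine enzyme, was called as well without MP replicate 3, higher in SP. The cytosolic partner CARS had the opposite sign: the CARS to CARS2 ratio was 2.85, 4.31 and 5.55 in SP and 0.479, 1.08 and 1.81 in MP (exact two-sided permutation p = 0.1, the smallest possible; chosen after its values were seen). In MP replicate 1 the mitochondrial gene was the higher of the pair. RARS2, the mitochondrial arginine enzyme, was at 0.778, 1.18 and 1.86 FPKM in SP and at 6.07, 2.27 and 2.19 FPKM in MP (−0.91, limma adjusted p = 0.0776). Near 1 FPKM the addition of 1 before the logarithm understates a fold, and the shallower depth of SP widens its error.

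IARS2, the mitochondrial isoleucine enzyme (chromosome 16, 23586934 to 23631282), was the most abundant of its kind in both populations. It was at 16.4, 15.8 and 17.0 FPKM in SP and at 15.8, 13.5 and 12.1 FPKM in MP (log2 fold change 0.24, limma adjusted p = 0.381). In every library it was above its cytosolic partner IARS, the reverse of 13 of the 16 mitochondrial genes, whose cytosolic partner was higher in all 6 libraries. HARS and HARS2, the cytosolic and mitochondrial histidine enzymes, are neighbours on chromosome 7, with 47 bases between the listed loci. HARS was at 7.99, 10.3 and 11.9 FPKM in SP and 10.1, 10.0 and 11.0 FPKM in MP, whereas HARS2 was at 2.99, 2.11 and 3.13 FPKM in SP and 4.09, 4.15 and 4.50 FPKM in MP (log2 fold changes −0.06 and −0.50, neither called).

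**Figure D4:**
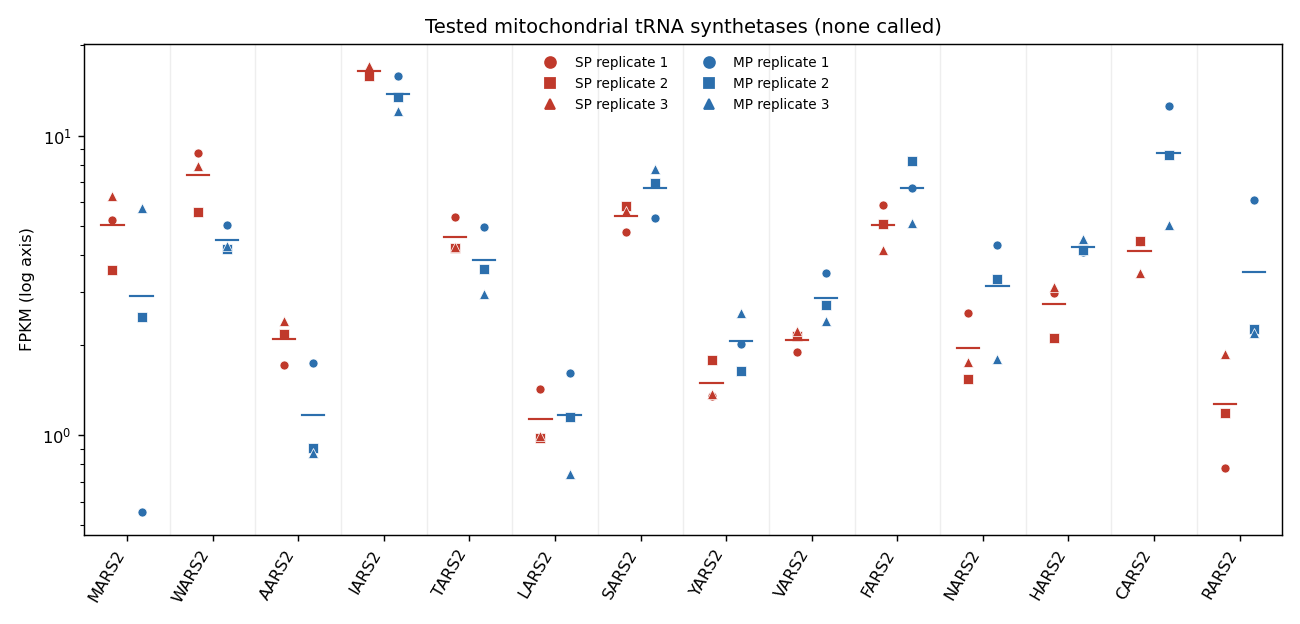
Level of each of the 14 tested mitochondrial synthetases in every library (FPKM, log axis; SP red at the left of each gene, MP blue at the right, replicate by symbol, short lines for means of 3), ordered by fold change. IARS2 stands highest at 12.1 to 17.0 FPKM, and none was called.

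Among the 14 stress and amino acid synthesis genes CHAC1, DDIT3 and ERN1 rose, none fell and 11 were not called, while 6 had an unadjusted p under 0.05 in the limma fit. Their median log2 fold change was 0.41. Called genes were thus 21.4% of this group, under the 39.2% of all tested genes. Without SP replicate 2 none of the 14 was called, and without SP replicates 1 and 3 and MP replicates 1 to 3 the calls numbered 1, 4, 1, 1 and 2.

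ATF4, the transcription factor at the centre of the response (chromosome 5, 110946623 to 110948721), was the most abundant member by far. It was at 1884, 1875 and 1514 FPKM in SP and at 1082, 1208 and 1329 FPKM in MP. Every SP library was above every MP library, by 1.45 times on the fitted scale. The log2 fold change of 0.54 ± 0.22 (SE) did not pass as deposited (limma adjusted p = 0.0875). It passed with FPKM rescaled to a sum of 1e+06 (0.76, adjusted p = 0.0131) and with quantile normalization (0.69, 0.0180), over a range of 0.0131 to 0.229 in 16 alternatives. ATF4 is controlled largely at translation, which these messenger RNA levels do not show.

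DDIT3, which encodes the death-promoting transcription factor CHOP (chromosome 5, 55956302 to 56003151), rose. It was at 67.2, 68.7 and 59.2 FPKM in SP and at 32.7, 44.5 and 22.2 FPKM in MP. The groups lay well apart (log2 fold change 1.00 ± 0.28 SE, limma adjusted p = 0.0272; 0.0171 to 0.0783 in 16 alternatives, 11 of them called). It was lost without SP replicates 1 to 3 (0.0783, 0.0773 and 0.0576) and without MP replicates 1 and 3 (0.0656 and 0.0515). The files give the same locus to MARS, the cytosolic methionine enzyme, and this locus also overlaps those of GLI1 and ARHGAP9. MARS was at 5.52, 4.39 and 5.57 FPKM in SP and at 10.1, 5.32 and 4.85 FPKM in MP. MARS did not share the rise (log2 fold change −0.28, limma adjusted p = 0.478; 0.013 on the log2 scale without MP replicate 1). Whether reads of the pair were split by strand is not given in the sources used here.

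CHAC1, a glutathione-degrading enzyme induced by ATF4 and CHOP (chromosome 10, 36485786 to 36488158), was at 19.2, 21.8 and 11.3 FPKM in SP and at 4.77, 6.78 and 10.3 FPKM in MP. SP replicate 3 and MP replicate 3 nearly met. The log2 fold change was 1.16 ± 0.34 (SE, limma adjusted p = 0.0318; 10 of 16 alternatives kept the call, 0.00975 to 0.0982). The call was lost without SP replicates 1 or 2 (0.0969 and 0.0982), without MP replicates 1 or 2 (0.0933 and 0.0836) with no filter (0.0657) and with the replicate number as a block (0.0528). TRIB3, a pseudokinase induced by ATF4 and CHOP that feeds back on ATF4, was at 8.07, 9.09 and 3.38 FPKM in SP and at 3.74, 2.46 and 4.55 FPKM in MP. SP replicate 3 lay inside the MP range, and the log2 fold change of 0.71 was not called (limma adjusted p = 0.152; 0.0444 to 0.369 in the alternatives), but was called without SP replicate 3 (1.09, adjusted p = 0.0444). ATF5, a relative of ATF4, was at 14.4, 11.1 and 11.1 FPKM in SP and at 19.5, 13.4 and 9.23 FPKM in MP, overlapping (log2 fold change −0.14, limma adjusted p = 0.726). Its sign changed with the sum rescaled to 1e+06 (0.067) and without MP replicate 1 (0.11).

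Both ER stress sensors among the members were higher in SP on average, and one of them was called. ERN1, the kinase and ribonuclease IRE1 (chromosome 19, 48268458 to 48350784), was at 6.90, 5.70 and 4.26 FPKM in SP and at 2.45, 1.56 and 3.33 FPKM in MP, without overlap (log2 fold change 0.95 ± 0.28 SE, limma adjusted p = 0.0313; 10 of 15 alternatives kept the call, 0.0128 to 0.101). It was lost without SP replicates 1 and 2 (0.101 and 0.0816), MP replicates 1 and 2 (0.0702 and 0.0969) and with no filter (0.0706). EIF2AK3, the kinase PERK (chromosome 11, 47433900 to 47515741), was at 29.4, 19.8 and 16.2 FPKM in SP and at 17.0, 7.35 and 7.33 FPKM in MP. MP replicate 1 lay just above SP replicate 3, while each SP library was above the MP library of its number. Its log2 fold change was 1.04 ± 0.37 (SE; limma adjusted p = 0.0579), and 5 of 16 alternatives called it (0.0208 to 0.174), among them the fits without MP replicate 1 (1.41, 0.0248), with the sum rescaled to 1e+06 (0.0310), with the replicate number as a block (0.0208) and with that sum taken without mitochondrial and ribosomal protein genes (0.0415).

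XBP1, the transcription factor that IRE1 activates by splicing (chromosome 17, 68052008 to 68057008), was at 488, 405 and 332 FPKM in SP and at 366, 414 and 450 FPKM in MP. The populations overlapped fully, with a log2 fold change of −0.02 and a 95% interval of −0.56 to 0.52. Its sign turned with the sum rescaled to 1e+06 (0.20). These gene values do not separate spliced from unspliced XBP1. Plasma cells and secretory epithelium are known for high XBP1, and their markers were uneven here: B and plasma cell markers summed to 6.02 to 11.3 FPKM in SP and 31.9 to 187 FPKM in MP, with PAX5 listed at 0 in all libraries of both, and MS4A1 and POU2AF1 at 0 in SP and below 1 FPKM in MP. Epithelial markers summed to 228 to 2021 FPKM in SP and 1152 to 5257 FPKM in MP. Their part in the XBP1 level was not tested.

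**Figure D5:**
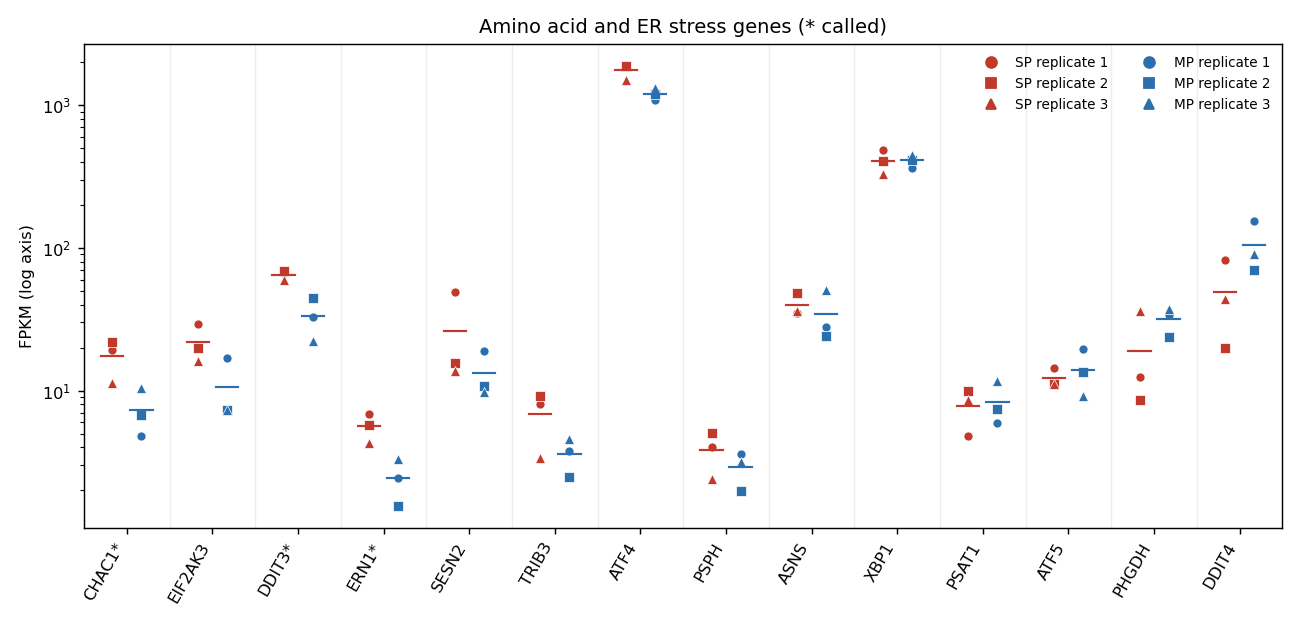
Level of each stress or amino acid synthesis gene in every library (FPKM, log axis; SP red at the left of each gene, MP blue at the right, replicate by symbol, short lines for means of 3), ordered by fold change; an asterisk marks a call. CHAC1, DDIT3 and ERN1 carry the calls, ATF4 stands highest, at 1082 to 1884 FPKM, and DDIT4 and PHGDH are at the right with the lowest fold changes.

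None of the 4 amino acid synthesis enzymes was called by limma, and none had an unadjusted p under 0.05. ASNS, asparagine synthetase, was at 35.2, 48.2 and 35.9 FPKM in SP and at 27.8, 24.0 and 50.7 FPKM in MP, where MP replicate 3 was the highest of all 6 (log2 fold change 0.27, 95% interval −0.46 to 1.01). PHGDH, which opens the serine pathway, was at 12.5, 8.55 and 36.0 FPKM in SP and at 33.6, 23.6 and 37.2 FPKM in MP. SP replicate 3 stood with the MP libraries (−0.92, limma adjusted p = 0.160; 0.0229 to 0.414 in the alternatives, 0.0702 with the block), and without it PHGDH was lower at −1.49 (adjusted p = 0.0229). Each SP library was below the MP library of its number. PSAT1, the next enzyme, was at 4.83, 9.88 and 8.54 FPKM in SP and at 5.92, 7.41 and 11.7 FPKM in MP, and PSPH, the last, at 4.03, 5.06 and 2.39 FPKM in SP and at 3.60, 1.98 and 3.18 FPKM in MP. Both overlapped between the populations, with log2 fold changes of −0.10 for PSAT1 and 0.28 for PSPH. The sign of PSAT1 turned with the sum rescaled to 1e+06 (0.11).

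SESN2 and DDIT4, stress-induced brakes on the growth kinase mTORC1, did not pass and had opposite signs. SESN2, a leucine sensor, was at 49.0, 15.7 and 13.8 FPKM in SP and at 19.1, 10.7 and 9.82 FPKM in MP, with SP replicate 1 far above the others (log2 fold change 0.76, limma adjusted p = 0.241; 0.0659 to 0.681 in the alternatives). Without SP replicate 1 the log2 fold change was 0.21 (adjusted p = 0.681), and with the replicate number as a block adjusted p was 0.0659. SESN2 in each SP library was above, and DDIT4 below, the MP library of the same number. DDIT4, which also answers to hypoxia and glucocorticoid, was at 82.3, 19.8 and 44.1 FPKM in SP and at 154, 69.7 and 91.2 FPKM in MP, where SP replicate 1 was above MP replicate 2 (−1.23, limma adjusted p = 0.0914; 0.0189 to 0.243 in the alternatives). Without SP replicate 1 DDIT4 was lower at −1.71 (adjusted p = 0.0413), as it was with the replicate number as a block (0.0189).

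The wider pathway was read from lists of other genes. Among 11 genes that phosphorylate eIF2 or control this step, 4 rose (EIF2AK2, PPP1R15B, DNAJC3 and GCN1) and IMPACT fell (median log2 fold change 0.51), a share of 45.5% near the 39.2% of all tested genes. EIF2AK2, the kinase PKR, which is induced by interferon, was at 17.3, 11.7 and 9.87 FPKM in SP and at 2.73, 2.68 and 5.23 FPKM in MP (1.63, limma adjusted p = 0.00769). PPP1R15B, a phosphatase subunit that reverses the phosphorylation, was at 102, 80.2 and 50.1 FPKM in SP and at 29.3, 19.3 and 28.0 FPKM in MP (1.52, limma adjusted p = 0.00977). DNAJC3, an inhibitor of PKR and PERK, was at 67.5, 72.5 and 72.0 FPKM in SP and 40.9, 31.2 and 47.5 FPKM in MP. IMPACT, which restrains GCN2, was at 0.798, 1.24 and 0.621 FPKM in SP and 2.29, 3.04 and 1.67 FPKM in MP. The amino acid sensor GCN2 itself (EIF2AK4) was at 2.74, 1.68 and 2.29 FPKM in SP and at 2.45, 1.45 and 0.811 FPKM in MP and was not called. Without SP replicates 1 to 3 the list had 2, 3 and 2 calls, and without MP replicates 1 to 3 it had 2, 2 and 4.

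The 9 genes of eIF2, its exchange factor eIF2B and the separate initiator protein EIF2A gave 1 rise and 2 falls, 33.3% called against 39.2% of all tested genes. EIF2A was at 29.2, 33.1 and 25.7 FPKM in SP and at 19.1, 18.6 and 16.3 FPKM in MP (log2 fold change 0.67, limma adjusted p = 0.0399). EIF2B1 was at 1.87, 1.98 and 2.81 FPKM in SP and at 6.85, 4.11 and 4.20 FPKM in MP, and EIF2B3 at 2.68, 2.47 and 2.93 FPKM in SP and at 7.74, 4.29 and 5.17 FPKM in MP (−0.89 and −0.83, limma adjusted p = 0.0308 and 0.0347). Another subunit, EIF2B2, was at 55.9, 46.4 and 73.0 FPKM in SP and at 26.8, 36.3 and 44.1 FPKM in MP without a call (0.70, limma adjusted p = 0.0779). Subunits of 1 complex thus had SP values on either side of MP. With FPKM rescaled to a sum of 1e+06 the list had 3 rises and no fall, without SP replicates 1 and 2 or MP replicate 1 it had no call, and without SP replicate 3 or MP replicate 2 it had 1.

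Other known ATF4 targets moved both ways. Of 25 tested, 6 rose and 5 fell (median log2 fold change −0.10), a share of 44% that is near the 39.2% of all tested genes. The risers were amino acid transporters (SLC7A1, SLC3A2 and SLC7A5), the lipoprotein receptor VLDLR, CTH of cysteine synthesis and the mitochondrial folate enzyme MTHFD2. SLC7A1 was at 124, 89.7 and 91.9 FPKM in SP and at 13.5, 20.6 and 51.2 FPKM in MP (2.00, limma adjusted p = 0.0128). SLC3A2, the shared heavy chain of several transporters, was at 739, 535 and 391 FPKM in SP and at 190, 152 and 299 FPKM in MP (1.38, limma adjusted p = 0.0173). NUPR1, a stress-induced transcription cofactor, fell to 12.5, 29.4 and 57.1 FPKM in SP, against 376, 254 and 240 FPKM in MP (−3.31, limma adjusted p = 0.00380). The other falls were EIF4EBP1, ALDH18A1, SHMT2 and GDF15, of which GDF15 was under 1 FPKM in every SP library, so that the filter fixed its direction. Without SP replicates 1 to 3 the calls numbered 4, 5 and 8, and without MP replicates 1 to 3 they numbered 4, 4 and 12. With FPKM rescaled to a sum of 1e+06 there were 7 rises and 2 falls.

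In the ER unfolded protein response list 5 of 23 genes rose and SEC61B fell (median log2 fold change 0.28), or 26.1% called, under the 39.2% of all tested genes. HYOU1, an ER chaperone, was at 119, 72.7 and 77.3 FPKM in SP and at 33.8, 20.9 and 29.8 FPKM in MP (1.63, limma adjusted p = 0.00611). SYVN1, a ubiquitin ligase of ER-associated degradation, was at 40.8, 23.9 and 33.5 FPKM in SP and at 12.2, 13.8 and 15.3 FPKM in MP (1.17, limma adjusted p = 0.0122), and HSP90B1, the ER chaperone GRP94, at 1650, 854 and 1019 FPKM in SP and at 431, 356 and 566 FPKM in MP (1.35, limma adjusted p = 0.0148). PDIA4 and DNAJC3 completed the 5. HSPA5 (BiP), the most abundant gene of the list, was at 4941, 2206 and 2538 FPKM in SP and at 3084, 1533 and 2468 FPKM in MP, overlapping and not called (limma adjusted p = 0.419). SEC61B, a subunit of the ER channel for new proteins, was at 195, 199 and 172 FPKM in SP and at 442, 309 and 296 FPKM in MP. Without SP replicates 1 to 3 the list had 3 calls each, and without MP replicates 1 to 3 it had 4, 2 and 6. Immediate early genes, which tissue dissociation can induce, had ZFP36 called higher among 12 (limma), or 8.33% called against 39.2% of all tested genes. These genes summed to 7604 to 17011 FPKM in SP and 7801 to 22006 FPKM in MP.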

How the data were processed

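The deposited values are FPKM, 1 table per library, per the file headers, and no scaling between libraries is stated. The submitters' processing notes name cutadapt 2.5, HISAT2 2.1.0 and build ARS-UCD1.2; the sources used here do not give the quantifier, the annotation or any use of strand. An FPKM value is relative to all other transcripts of its library, so abundant genes shift the rest. Counts were not used here, and relative depth was estimated from ratios of the lowest values, a step tested on simulated data, as was the fit. The row without a gene name (0.185% to 1.91% of the values) was left out.

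Groups follow the sample titles. The test was limma 3.58.1 in R 4.3.3 on log2(FPKM + 1) (trend, two-sided), for genes reaching 1 FPKM in 3 libraries, Benjamini-Hochberg adjusted over 12127 genes at 0.05. Up to 16 alternatives varied scaling, pseudocount, filter, block, weights and libraries. The loci of 10 tested members overlap another tested locus. The values of 1 member are not reported here. Coordinates are those of the files, span introns and in some cases take in other genes.

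Values in every library are given for the 14 stress genes and, in each compartment, for up to 5 called synthetases in each direction and the 2 most abundant; of each pathway list up to 3 called genes in each direction. Other genes with values, among them CXCL10, EIF2AK4, EIF2B2 and HSPA5, were chosen after their values were seen. The members and lists were chosen with earlier results of these data known.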

Additional observations from a re-analysis of the deposited data

How the results depend on the processing

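FARSB was called lower in all 16 alternatives, the other 7 called members in 6 to 12. Leaving out 1 library at a time gave 2421 to 4455 calls over all genes (1056 to 2574 higher, 1126 to 1881 lower), and 1 to 9 among the members (0 to 7 higher, 1 to 2 lower), against 4759 and 8. Among the members, rescaling to a sum of 1e+06 gave 13 calls (12 higher), and no filter on low values 4 (3 higher), where more genes were tested. Library weights gave 2 lower. With the replicate number as a block, the members had 10 calls, 3 of them lower (FARSB, CARS2 and DDIT4); 7 of the 8 calls remained, CHAC1 was lost (adjusted p = 0.0528), and all genes gave 4793 calls. The column names share a stroma number between same-numbered libraries, but what it marks is not stated, and the libraries are not shown to pair: deviations from the group means correlated at 0.105, 0.533 and −0.0854 for numbers 1, 2 and 3, and only those of number 2 correlated best with each other. Log2 fold changes with a changed sign, none of them called, included 0.067 for ATF5, 0.039 for KARS, 0.11 for PSAT1 and 0.20 for XBP1 when rescaled to a sum of 1e+06, 0.042 for PSAT1 with library weights and 0.034 for XBP1 when rescaled without mitochondrial and ribosomal protein genes. With 1 library left out, ATF5 ranged from −0.39 to 0.11, MARS from −0.45 to 0.013, PSAT1 from −0.29 to 0.17 and XBP1 from −0.16 to 0.12. NARS, LARS2, HARS, LARS, DARS, VARS and YARS, none called, also changed sign in at least 1 alternative. Beyond what the design of each setting changes, the cause was not tested. Of 507 gene values over 32 members, 435 kept direction and call, which includes genes not called in either fit. In 41 a call was lost, in 19 one was gained and in 12 the sign changed. The 32 members were the stress genes, the called or most abundant synthetases, those without overlap, and FARSA and MARS. The lower depth of SP limits what can be said of RARS2, while EARS2 was under 1 FPKM in every library of both populations.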

Other observations

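Of 11 other genes that charge, edit or modify tRNA, 7 were tested and MTFMT rose, 14.3% called against 39.2% of all tested genes. The synthetases PARS2 and TARSL2 are in this list and were not tested. SP and MP values did not overlap in 5 of the 7, 1 with SP above and 4 with SP below, where 54.8% of all tested genes did not overlap. MTFMT formylates the initiator tRNA of mitochondria and was at 8.14, 5.99 and 6.39 FPKM in SP and at 4.62, 3.52 and 3.18 FPKM in MP (log2 fold change 0.72, limma adjusted p = 0.0447); the call was lost with any 1 of the 6 libraries left out. GATB, GATC and QRSL1 encode the 3 subunits of the amidotransferase that makes glutaminyl tRNA in mitochondria. None was called, and all had SP values below MP values: GATC was at 4.09, 4.94 and 7.15 FPKM in SP and at 7.67 to 9.20 FPKM in MP, QRSL1 at 0.759 to 1.48 FPKM in SP and 1.61 to 2.34 FPKM in MP, and GATB at 0.758 to 0.873 FPKM in SP and 1.06 to 1.22 FPKM in MP. GATB was under 1 FPKM in every SP library, so the filter fixed its direction.

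Genes by which mTORC1 senses amino acids gave 3 rises and 3 falls among 21 tested (median log2 fold change −0.20), 28.6% called against 39.2% of all tested genes. RRAGC, a Rag GTPase, was at 53.3, 51.8 and 40.1 FPKM in SP and at 16.1, 25.0 and 24.8 FPKM in MP (1.12, limma adjusted p = 0.0140), and TSC1 and FLCN also rose. LAMTOR4 and LAMTOR2, subunits of the lysosomal anchor of the Rag proteins, fell: LAMTOR4 was at 57.1, 53.8 and 52.0 FPKM in SP and at 151, 143 and 232 FPKM in MP (−1.64, limma adjusted p = 0.00396). SESN3, a relative of SESN2, was at 1.07, 1.54 and 1.62 FPKM in SP and at 6.44, 7.46 and 3.35 FPKM in MP (−1.44, limma adjusted p = 0.00981). With FPKM rescaled to a sum of 1e+06 the list had 6 rises and 3 falls, and without SP replicate 1 it had 1 rise and 3 falls.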
